A study of Homo sapiens with 4 samples.

Results

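The MCM (minichromosome maintenance) family was followed through a BRPF3 knockdown in U2OS cells, a human osteosarcoma line. Its 9 genes, MCM2 to MCM10, were picked by gene symbol with every probe set that carries the symbol, which gave 9 probe sets, 1 for each gene, among 16098 named probe sets of 14884 genes. The cells had been transfected at 50 nM with a non-targeting control siRNA or with siRNA against BRPF3, and RNA was taken after 48 hours. BRPF3 is a scaffold protein of the histone acetyltransferase complex built on KAT7 (HBO1), which was named for its binding to the origin recognition complex. Each siRNA had 2 Affymetrix whole-transcript arrays, described as biological replicates, and no further treatment or genotype separates the groups. All 9 MCM genes were bright enough to be tested, among 10696 genes, in both groups.

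MCM2 to MCM7 form the ring that opens DNA at the replication fork. The ring is loaded onto origins in G1 by the origin recognition complex with CDC6 and CDT1, a step called licensing, and becomes an active helicase in S phase when CDC45 and the GINS proteins join it to form the CMG complex. MCM8 and MCM9 are relatives that pair with each other and act in homologous recombination rather than in licensing. MCM10 carries the family name but has no helicase motor, and it helps the loaded CMG complex to start moving. Genes of the replicative ring are classical targets of the E2F factors, which drive transcription at the G1/S transition.

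The values are log2 intensities made with RMA, in which a difference of 1 is a doubling. The array medians lay between 4.596 and 4.605 on this scale. The siRNAs were compared with limma, and a call means an adjusted p under 0.05. Over the tested genes, differences between the 2 control arrays had an SD of 0.17, those between the 2 arrays with BRPF3 siRNA 0.20, and those between arrays of different groups 0.31 to 0.32. The titles call the arrays of a group biological replicates and do not describe how the cultures were kept apart. The p-values rest on how these 4 arrays scatter, and their number limits the precision. No probe set is named for BRPF3, so the knockdown was not checked on these arrays. Of 9 osteoblast markers 4 were named and 3 tested (RUNX2, SP7 and SPP1, with 0 called), and the named IBSP lay under the intensity bound. Of 4 tested epithelial markers KRT18 fell (-0.49 ± 0.09), and the 1 tested leukocyte marker LAPTM5 fell (-0.88 ± 0.13), while EPCAM (0.27 ± 0.08), KRT8 (-0.05 ± 0.10) and KRT19 (0.04 ± 0.13) did not pass. The part of these differences in the MCM results was not tested.

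MCM8 was the 1 MCM gene called after BRPF3 siRNA. It rose 1.38-fold, by 0.47 ± 0.09 on the log2 scale (± gives the SE from limma here and below, with n = 2 arrays per group). None of the 6 replicative genes passed the test, and their differences ran from -0.12 for MCM6 to 0.10 for MCM7. MCM9, the partner of MCM8, differed by -0.11 ± 0.10 and MCM10 by -0.04 ± 0.08, and neither passed. With 1 of 9 genes called, 11.1%, the family held a share below the 15.8% of all tested genes that were called (6.32% higher and 9.44% lower), so the count itself is no result about the family. Falls made up 59.9% of all calls, but 48.4% after quantile and 49.0% after cyclic loess normalization.

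**Figure D1:**
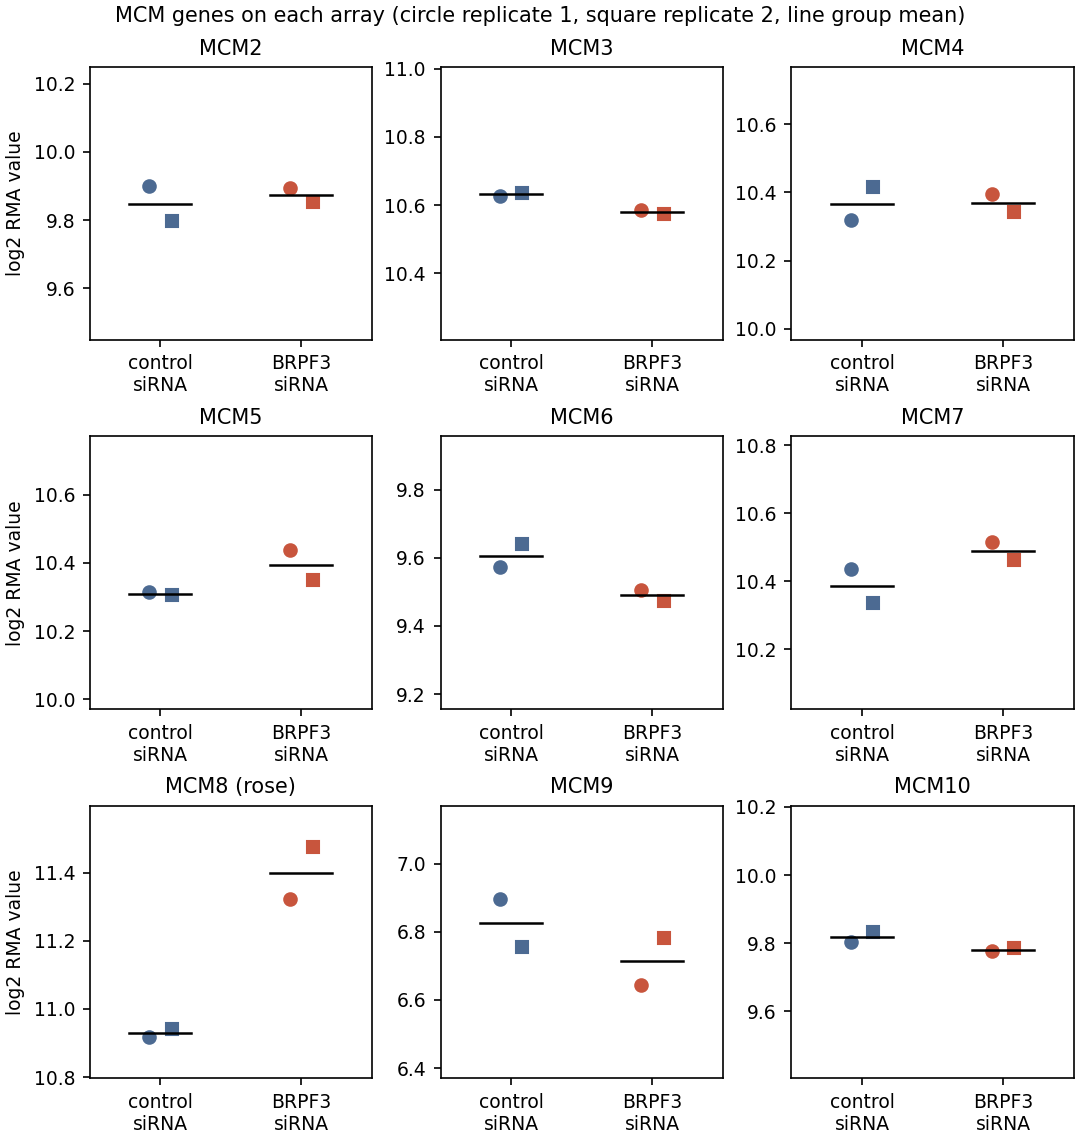
Log2 RMA value (vertical axis) of each MCM gene on each of the 4 arrays, with control siRNA in blue and BRPF3 siRNA in red, 1 panel per gene and the same span of values in every panel. The MCM8 arrays at 11.32 and 11.48 stand clear of the controls at 10.92 and 10.94, whereas the points of the other 8 genes lie close together.

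Among the replicative genes, MCM2, whose protein also binds histones at the fork, read 9.90 and 9.80 with control siRNA and 9.89 and 9.85 with BRPF3 siRNA, which overlap (log2 values, as for all levels below). MCM4, a subunit phosphorylated by the CDC7 kinase, read 10.32 and 10.42 against 10.40 and 10.34, again with overlap. The differences of both genes were close to 0, at 0.02 ± 0.08 for MCM2 (adjusted p = 0.858) and 0.0015 ± 0.08 for MCM4 (adjusted p = 0.991), in limma's test with Benjamini-Hochberg adjustment.

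MCM5 and MCM7 were higher on both BRPF3 siRNA arrays than on either control array. MCM5, which sits with MCM2 at the gate through which the ring opens, read 10.32 and 10.30 in controls and 10.44 and 10.35 after BRPF3 siRNA (0.08 ± 0.08, limma adjusted p = 0.508). MCM7, which binds MCM4 within the ring, read 10.44 and 10.33 against 10.52 and 10.46 (0.10 ± 0.08, limma adjusted p = 0.422). For MCM7 the gap between the groups was smaller than the distance between the 2 control arrays.

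On the deposited values MCM3 and MCM6 were lower on both BRPF3 siRNA arrays, for MCM3 with a sign that turned under quantile and cyclic loess normalization (0.05 and 0.04). MCM3, the neighbour of MCM5 in the ring, read 10.63 and 10.64 in controls and 10.59 and 10.57 after BRPF3 siRNA (-0.05 ± 0.08, limma adjusted p = 0.667). MCM6, the subunit that binds CDT1 during loading, read 9.57 and 9.64 against 9.51 and 9.47 (-0.12 ± 0.08, limma adjusted p = 0.344). Arrays without overlap were found for 4 of the 6 replicative genes, 2 higher and 2 lower, and for 63.2% of all tested genes (27.3% higher and 35.9% lower).

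On the deposited values the replicative genes lay near 0, with a median difference of 0.01 against -0.03 over all tested genes. They are bright genes, with MCM6, the dimmest of them, at the 90.7th percentile of mean value. Over the genes that passed the filter at the 75th percentile the median difference was -0.05. The 95% intervals of the 6 single genes (limma, not adjusted for the number of genes) reached at most 1.24-fold in either direction. This bound is set by MCM6 and holds for the deposited values. With the SE of these genes a difference of 0.30 to 0.33 would have been needed for a call. Quantile or cyclic loess normalization moved all 6 upwards, and none was called there. With quantile normalization the 6 genes ran from -0.03 (MCM6) to 0.19 ± 0.08 (MCM7), against a median of 3.6e-05 over all tested genes. The upward move was not particular to the ring. Quantile normalization also raised MCM10 and MCM8 (0.47 to 0.58), while the dimmer MCM9 moved less (-0.11 to -0.10). MCM3 turned positive under both normalizations, and so did MCM10, at 0.06 and 0.04. The sign of MCM2 turned without control siRNA replicate 2 (-0.03), and that of MCM4 without control siRNA replicate 1 (-0.05) or BRPF3 siRNA replicate 1 (-0.03), so the signs of these 4 genes depend on the setting.

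**Figure D2:**
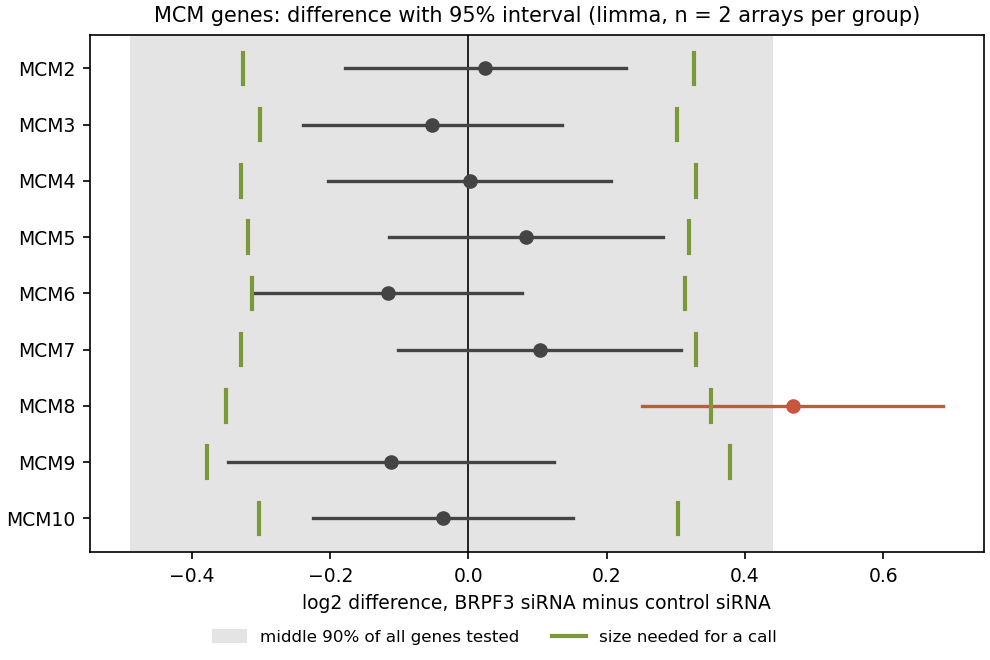
Log2 difference of each MCM gene (horizontal axis, BRPF3 siRNA minus control siRNA) with its 95% interval from limma, the difference needed for a call as green ticks, and the middle 90% of all genes tested as a grey band from -0.49 to 0.44. The interval of MCM8 runs from 0.25 to 0.69 and those of the other 8 genes include 0.

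MCM8 read 10.92 and 10.94 in controls and 11.32 and 11.48 after BRPF3 siRNA. The groups did not overlap, and the gap between them was wider than the distance between the arrays of either group. The rise had an adjusted p of 0.0266 in limma's test, with a 95% interval of 0.25 to 0.69, and it placed MCM8 at the 95.9th percentile of the differences of all tested genes. The difference stayed between 0.39 and 0.58 in the 15 other settings, but the call was lost in 5 of them. These were the fits without control siRNA replicate 1 (difference 0.46), control siRNA replicate 2 (0.48) or BRPF3 siRNA replicate 2 (0.39). The others were the fit without an intensity filter (limma adjusted p = 0.0690) and that over all probe sets, named or not (0.0660). Every call over all genes was lost in the fits without a control array, so those losses are not particular to MCM8.

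MCM9 had an SD of 0.10 between the arrays of each group, about as large as its difference. It read 6.90 and 6.76 in controls and 6.64 and 6.78 after BRPF3 siRNA, so the groups overlapped (adjusted p = 0.448 in limma's test, 95% interval -0.35 to 0.12). MCM10 was the steadiest of the 3 genes outside the ring, at 9.80 and 9.83 against 9.78 and 9.79 (limma adjusted p = 0.767). Both BRPF3 siRNA arrays were lower than both controls, as for 35.9% of all tested genes. The interval of MCM10, -0.23 to 0.15, covers changes of up to 1.17-fold.

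MCM8, MCM9 and MCM10 did not move as 1 class against the replicative genes. Measured within each array, MCM8 stood 0.36 and 0.56 higher relative to the mean of MCM2 to MCM7 on the 2 BRPF3 siRNA arrays than in the control mean, where the control arrays themselves lay at -0.02 and 0.02. The same ratio was -0.21 and -0.03 for MCM9, with controls at 0.07 and -0.07, and -0.07 and -0.01 for MCM10, with controls at -0.02 and 0.02, so both overlapped the controls. The ratio of MCM8 to its partner MCM9 was 1.496-fold higher after BRPF3 siRNA, with log2 values of 0.57 and 0.59 against -0.08 and 0.08. The ratios with MCM8 largely restate its own difference and are no separate test.

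Averaged over the 3 genes, the shift relative to the replicative ring was 0.10, from 0.03 and 0.17 on the BRPF3 siRNA arrays. The control arrays lay at 0.01 and -0.01, so this mean did not overlap the controls. The shift was 0.17 without BRPF3 siRNA replicate 1 and 0.03 without BRPF3 siRNA replicate 2. With MCM8 set aside, the mean of MCM9 and MCM10 was shifted by -0.08 and overlapped the controls. No p is given for these means, since 2 arrays against 2 allow 3 splits in an exact test. Inside the ring, the ratio of MCM7 to MCM6, the 2 genes farthest apart and picked for that after their values were seen, was 1.16-fold higher after BRPF3 siRNA, at 0.23 and 0.21 against 0.08 and -0.08 in log2.

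**Figure D3:**
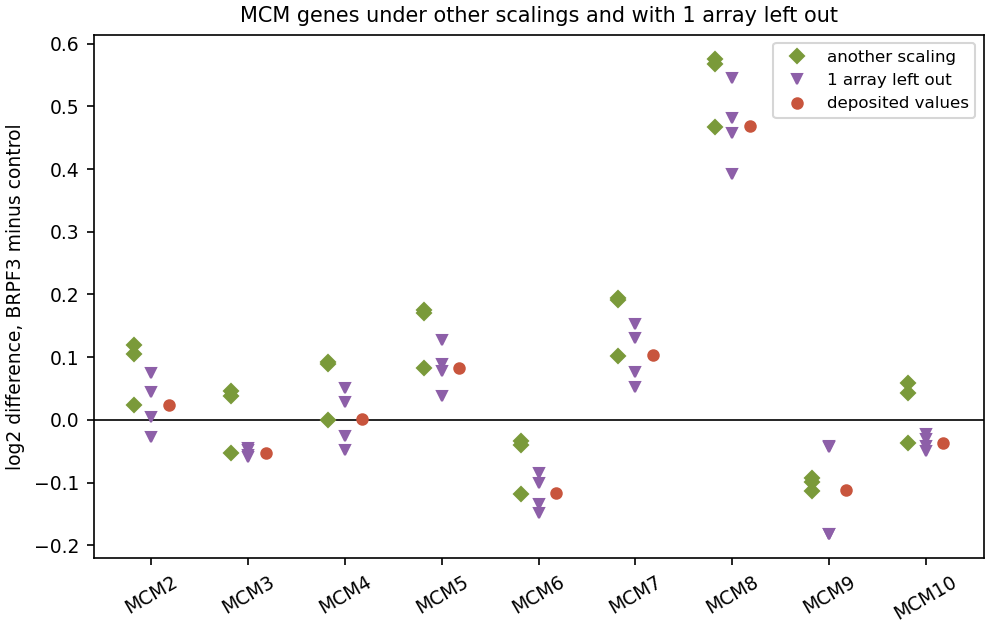
Log2 difference of each MCM gene (vertical axis) on the deposited values (red), under 3 other scalings (green) and with each array left out in turn (purple). MCM8 stays between 0.39 and 0.58 throughout, and the points of MCM2, MCM3, MCM4 and MCM10 fall on both sides of 0.

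The start of MCM8 faces that of TRMT6, a subunit of the enzyme that methylates adenosine in the body of initiator and other transfer RNAs. The start sites in RefSeq (GRCh38.p14) lie 119 bases apart on opposite strands, and the windows from 250 bases before to 50 after each start share 218 of 300 bases. The genes changed in opposite directions. TRMT6 read 9.20 and 9.16 in controls and 8.65 and 8.52 after BRPF3 siRNA, a fall of 0.59 ± 0.09 (-0.59, adjusted p = 0.0160 in limma's test). Its call was lost in the fits without control siRNA replicate 1 (-0.57) or 2 (-0.61), as every call was, and held in the other 13 settings. The ratio of MCM8 to TRMT6 was 2.08-fold higher after BRPF3 siRNA, at 0.92 and 1.199 in log2 against -0.03 and 0.03 in controls. It restates the differences of the single genes and is no separate test. The MCM8 window is shown because it holds both start sites. It is chr20:5950402-5950701 on the plus strand of GRCh38.p14, with matches to E2F motifs and to CCAAT in capitals:

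MCM8: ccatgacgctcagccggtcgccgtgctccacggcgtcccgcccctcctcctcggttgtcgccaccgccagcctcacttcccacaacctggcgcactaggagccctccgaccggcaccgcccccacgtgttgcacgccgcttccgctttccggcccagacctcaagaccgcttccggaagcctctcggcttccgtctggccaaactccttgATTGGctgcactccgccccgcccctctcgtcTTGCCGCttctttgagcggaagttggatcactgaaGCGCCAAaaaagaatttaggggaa

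Of 20 protein-coding genes next to or overlapping the 9 MCM genes in RefSeq, 13 were named and 10 tested. Of these HMOX1, beside MCM5, rose, TRMT6 fell and 8 did not pass, a count too small to set apart from the 15.8% of all tested genes that were called (6.32% higher and 9.44% lower). HMOX1, which encodes the heme-degrading enzyme, read 8.66 and 8.601 against 10.22 and 10.20 (1.58 ± 0.08, limma adjusted p = 0.00756), while MCM5 differed by 0.08. The call of HMOX1 was lost without control siRNA replicate 1 (1.61) or 2 (1.55), as every call was. The ratio of MCM5 to HMOX1 therefore was lower, with a log2 change of -1.4998 and values of -1.47 and -1.53 after BRPF3 siRNA. Ratios with TRMT6 and HMOX1, the called neighbours, restate their calls and are no separate test. OPTN, the autophagy receptor optineurin beside MCM10, read 7.27 and 7.17 against 7.48 and 7.68 and did not pass (0.36 ± 0.10, limma adjusted p = 0.0651). It was called with an intensity trend (limma adjusted p = 0.0262) and with a filter at the 75th percentile (0.0233). ASF1A, a histone chaperone whose gene overlaps MCM9, differed by 0.19 ± 0.09 (limma adjusted p = 0.222), at 8.82 and 8.76 against 8.89 and 9.07.

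The other tested neighbours lay nearer to 0. UBE2V2 beside MCM4 differed by 0.12 ± 0.08, UCMA beside MCM10 by 0.10 ± 0.09 and CRLS1, the cardiolipin synthase on the far side of MCM8, by 0.06 ± 0.08. PAQR8 beside MCM3 differed by -0.07 ± 0.12, PODXL2 beside MCM2 by -0.07 ± 0.09 and COPS6 beside MCM7 by -0.03 ± 0.09. MCM8 thus had TRMT6 lower on its upstream side and CRLS1, with no call, downstream.

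**Figure D4:**
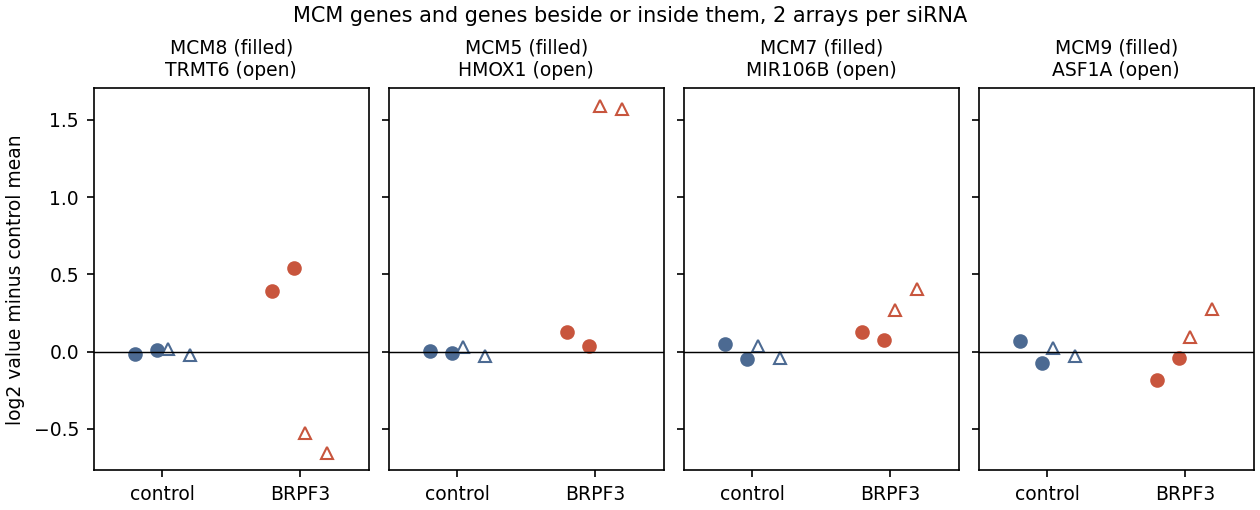
Log2 value minus the mean of the control arrays (vertical axis) for 4 MCM genes (filled) and a gene beside or inside each (open), with 2 arrays per siRNA. MCM8 lies above 0 and TRMT6 below it on both BRPF3 siRNA arrays, and HMOX1 lies far above MCM5.

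MCM7 hosts 3 microRNA genes, MIR106B, MIR93 and MIR25, on its own strand, so that their precursors can come from the MCM7 transcript. Their mature arms fall into different seed groups, the seed being bases 2 to 8 by which a microRNA recognises its targets. It stands in capitals in these RefSeq sequences of arms from the 3 genes, and the first and second of them share the seed AAAGUGC of the miR-17 family:

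hsa-miR-106b-5p: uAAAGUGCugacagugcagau
hsa-miR-93-5p: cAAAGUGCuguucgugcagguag
hsa-miR-25-3p: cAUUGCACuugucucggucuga

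The probe sets named for these microRNA genes did not pass the test. MIR106B read 5.61 and 5.53 in controls and 5.84 and 5.97 after BRPF3 siRNA, with no overlap (0.34 ± 0.09, limma adjusted p = 0.0558). MIR25 read 6.51 and 6.04 against 6.70 and 6.17 (0.16 ± 0.22, limma adjusted p = 0.651), and MIR93 read 4.74 and 5.17 against 5.19 and 4.62 (-0.05 ± 0.22, limma adjusted p = 0.885). For these last genes the arrays of a group lay farther apart than the group means. The arrays measure RNA from these loci and do not tell a mature microRNA from its precursor or host transcript. The difference of MCM7 itself, 0.10, was smaller than that of MIR106B. The MCM7 to MIR106B ratio was 0.851-fold after BRPF3 siRNA, at -0.14 and -0.33 in log2 against 0.01 and -0.01. MIR106B had the largest difference of these microRNA genes, so the ratio is no separate test.

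Promoter windows were found in RefSeq (GRCh38.p14) for 7 of the 9 MCM genes, without MCM4 and MCM5. They were searched on both strands for the E2F forms TTCCCGC or TTCGCGC and TTGCCGC or TTGGCGC, for CCAAT, the letters bound by NF-Y, and for the CHR forms TTTGAA and TTCGAA. An E2F form was present in all 4 windows of replicative genes and in 1 of 3 of the others, MCM8, against 13.1% of 27305 promoter windows and 19.6% of the 8253 windows of tested genes. CCAAT was present in 6 of 7 windows, all but MCM2, against 35.7% of all windows and 36.1% of those of tested genes. A CHR form was present in 1 window, that of MCM6, against 16.6% of all windows and 11.2% of those of tested genes.

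The 2 E2F matches of MCM8 lie at -9 and 27 from its start site. MCM6 has 4 matches that lie in pairs, where forms of opposite strand overlap each other, as do the 2 matches of MCM2. A count of matches is thus not a count of separate sites. The windows of MCM9 and MCM10 hold none of the 4 forms. In MCM7 E2F forms and a CCAAT overlap at the start site. The windows of MCM6, chr2:135876394-135876693 on the minus strand, and MCM9, chr6:118935110-118935409 on the minus strand, are shown as the one with most E2F matches and as one without an E2F form, with E2F forms and CCAAT in capitals:

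MCM6: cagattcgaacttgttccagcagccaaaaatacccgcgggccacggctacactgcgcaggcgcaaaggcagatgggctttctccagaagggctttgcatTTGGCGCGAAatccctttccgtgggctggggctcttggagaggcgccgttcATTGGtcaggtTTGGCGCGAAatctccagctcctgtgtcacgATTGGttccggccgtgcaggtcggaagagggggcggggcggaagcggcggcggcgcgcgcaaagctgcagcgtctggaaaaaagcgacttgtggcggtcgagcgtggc
MCM9: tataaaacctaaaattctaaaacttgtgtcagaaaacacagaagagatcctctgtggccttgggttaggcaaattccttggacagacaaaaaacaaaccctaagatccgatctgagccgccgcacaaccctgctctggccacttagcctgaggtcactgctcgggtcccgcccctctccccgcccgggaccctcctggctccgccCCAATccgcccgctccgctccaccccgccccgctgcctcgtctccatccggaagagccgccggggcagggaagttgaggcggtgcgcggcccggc

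These matches are a description of letters. Set beside the log2 differences, MCM6 has 4 E2F matches (-0.12), MCM7 has 3 (0.10) and MCM3 has 3 (-0.05). MCM8 has 2 (0.47), MCM2 has 2 (0.02), and MCM9 (-0.11) and MCM10 (-0.04) have none. The TRMT6 window, which shares bases with that of MCM8, also has 2 (-0.59). A relation between matches and differences was not tested.

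Other genes of the pathway were taken from 7 lists. These cover MCM loading, CMG assembly and firing, fork protection and unloading, MCM chaperones and histone partners, recombination partners of MCM8 and MCM9, the E2F, RB and DREAM regulators, and the microRNAs hosted by MCM7. They hold 98 genes in all, of which 66 were named and tested. Of these 5 rose and 1 fell, 9.09%, against 15.8% of all tested genes (6.32% higher and 9.44% lower). The counts for single lists below stand beside the same shares and are no result about a list. The median difference over the 66 genes was -0.03, as over all tested genes.

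MCMBP, which binds newly made MCM proteins and keeps the pool of replicative rings stable, was the 1 gene of these lists that fell. It read 9.99 and 9.97 in controls and 9.65 and 9.56 after BRPF3 siRNA (-0.38 ± 0.08, limma adjusted p = 0.0354). Its call was lost with quantile normalization (-0.29, limma adjusted p = 0.0674) and cyclic loess normalization (-0.30, limma adjusted p = 0.0661). It was also lost without an intensity filter, over all probe sets, and with any of the 4 arrays left out. Leaving out a control array removed every call over all genes. ASF1B, a histone chaperone that works with MCM2 at the fork, rose from 8.62 and 8.596 to 9.03 and 8.91 (0.36 ± 0.08, limma adjusted p = 0.0415). Of the 7 tested MCM chaperones and histone partners the other 5 did not pass.

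Of 9 listed genes of origin recognition and MCM loading, the loaders CDC6 and CDT1 were named and tested, and GMNN and the ORC genes were not analysed here. CDC6 read 9.65 and 9.61 against 9.47 and 9.37 (-0.21 ± 0.08, limma adjusted p = 0.135), and CDT1 read 9.15 and 9.10 against 9.18 and 8.90 (-0.09 ± 0.11, limma adjusted p = 0.630). With an intensity trend CDC6 was called (limma adjusted p = 0.0375). Among 13 tested genes of CMG assembly and origin firing 0 rose and 0 fell, with differences from -0.27 to 0.27 and a median of 0.03. CDC45, the CMG subunit whose joining marks firing, differed by 0.03 ± 0.08 (limma adjusted p = 0.849).

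Of 11 tested genes of fork protection and CMG unloading 1 rose and 0 fell. TIMELESS rose from 8.999 and 9.01 to 9.37 and 9.34 (0.35 ± 0.08, limma adjusted p = 0.0367). TIPIN, its partner, named after its values were seen, read 8.15 and 8.14 against 7.68 and 7.89 and did not pass (-0.36 ± 0.10, limma adjusted p = 0.0609). The median of this list was -0.12.

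Of 14 tested recombination factors that act with or beside MCM8 and MCM9, 1 rose and 0 fell, with a median of -0.06. RAD52, which anneals single strands, rose from 7.17 and 7.21 to 7.67 and 7.78 (0.54 ± 0.08, limma adjusted p = 0.0183). HROB, the factor that recruits MCM8 and MCM9 to damaged DNA, read 7.198 and 7.07 against 6.96 and 6.84 and did not pass (-0.23 ± 0.09, limma adjusted p = 0.140). Of 16 tested E2F, RB and DREAM regulators 2 rose and 0 fell, with a median of 0.04: E2F2, an activator, from 7.63 and 7.74 to 8.17 and 8.07 (0.43 ± 0.09, limma adjusted p = 0.0313), and E2F8, a repressor of the family, from 8.71 and 8.75 to 9.17 and 9.10 (0.41 ± 0.08, limma adjusted p = 0.0288). The calls of TIMELESS, ASF1B, E2F2 and E2F8 were lost with any of the 4 arrays left out, and that of RAD52 with any but BRPF3 siRNA replicate 1. Without either control array every call over all genes was lost, so that part is not particular to these genes. All 5 calls were also lost without an intensity filter and over all probe sets.

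**Figure D5:**
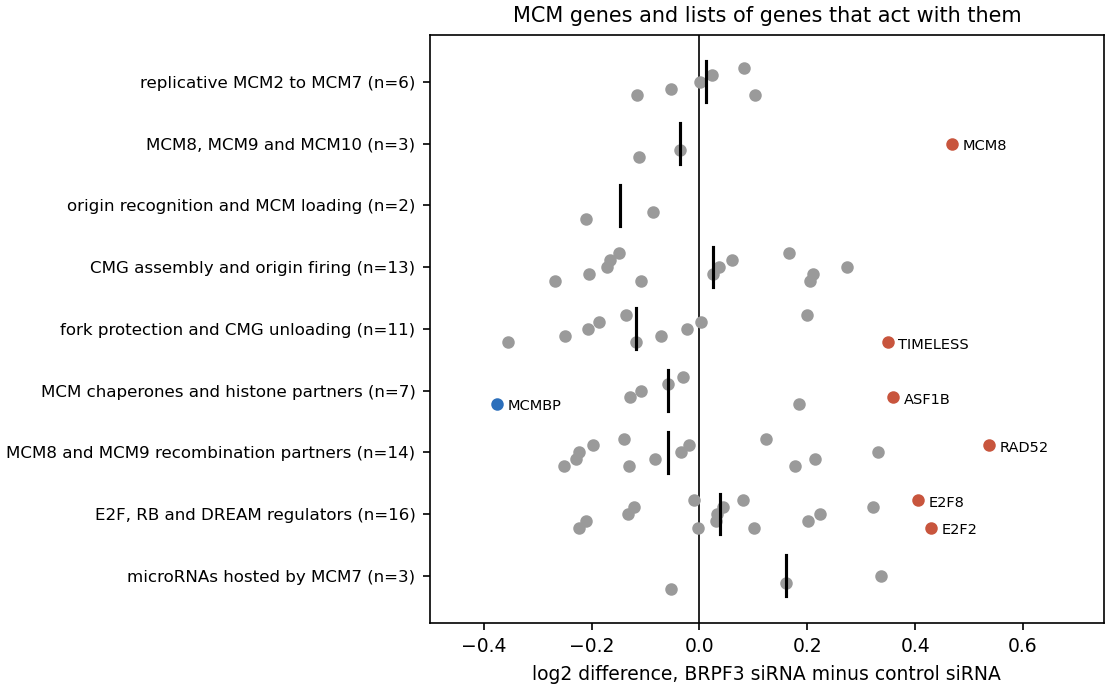
Log2 difference (horizontal axis, BRPF3 siRNA minus control siRNA) of every tested gene of the MCM classes and of 7 lists, with called genes in red (rose) or blue (fell) and named, and the list median as a black bar. The 6 replicative genes lie between -0.12 and 0.10, and the 13 genes of CMG assembly and origin firing between -0.27 and 0.27. These ranges hold unequal numbers of genes and were not compared.

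Likeness of pattern was measured as the Euclidean distance between the 4 array values of a gene and those of another, each centred on its own mean. The tested genes nearest to MCM8 were DUSP15 (distance 0.01, difference 0.47), MOCOS (0.02, 0.47) and C9orf72 (0.02, 0.48). The gene nearest to MCM10 was RRM1, a subunit of ribonucleotide reductase, at a distance of 0.01 and with a difference of -0.03. The next nearest to MCM10 were MAP2K1 and C4A. Those nearest to MCM4 were FEM1C, OGFOD2 and the centromere gene CENPU. SPI1 lay nearest to MCM5 (0.004), HNRNPA1 to MCM3 (0.005), GGACT to MCM7 (0.004), AASDHPPT to MCM6 (0.01), RGS12 to MCM2 (0.02) and SSBP2 to MCM9 (0.02). No MCM gene was among the 3 nearest genes of another. With 4 arrays such distances describe the values and carry no test.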

How the data were processed

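The 4 Affymetrix arrays, 2 per siRNA, carried RNA of U2OS cells, with groups and replicate numbers taken from the sample titles. The authors deposited log2 values of 53617 probe sets, made with RMA per the submitters' processing notes. The RMA version and settings were not given in the sources used here. RMA scales arrays to each other, which makes each difference relative to most other transcripts, and dim probe sets are compressed towards background. Probe sets were named from the platform annotation and a RefSeq gene table (GRCh38.p14, 16098 identifiers matched). The brightest probe set of each gene was used, and a gene was tested if its mean reached 4.59, the median over all probe sets. The test was lmFit and eBayes of limma 3.58.1 under R 4.3.3 (no trend, not robust, two-sided, 2 residual and 3.81 prior degrees of freedom), with Benjamini-Hochberg adjustment over 10696 genes.

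The text names the MCM genes, every called gene of the lists, genes fixed by name (MCMBP, HROB, CDC6, CDT1, CDC45, GMNN and the microRNA genes), the nearest and overlapping protein-coding genes, and genes of nearest pattern. The members and lists were chosen with earlier results of these data known. The fit was tested on simulated data. Alternatives were other normalizations, filters, probe set choices, variance models, thresholds, the replicate block, and each array left out.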

Additional observations from a re-analysis of the deposited data

How the results depend on the processing

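The MCM8 difference kept its sign in all 15 other settings, and MCM5, MCM6, MCM7 and MCM9 kept theirs. The number of MCM genes called, 1, became 0 without an intensity filter and over all probe sets, and was 0 to 1 when single arrays were dropped. The 6 called genes of the lists became 19 with an intensity trend, 13 with the filter at the 75th percentile, 13 at an adjusted p under 0.1, 0 without an intensity filter and 0 over all probe sets, and 0 to 1 when single arrays were dropped. Over all genes 1686 calls became 409 without an intensity filter, 1008 over all probe sets, 2645 with an intensity trend and 2877 at an adjusted p under 0.1, and 0 to 791 when single arrays were dropped. They were 0 without either control array (limma, 2446 and 2477 genes at an unadjusted p under 0.05), a fit that gives the single remaining control array the spread of the other group. Of the calls 59.9% were falls, 48.4% after quantile and 49.0% after cyclic loess normalization. The shift of MCM8, MCM9 and MCM10 relative to MCM2 to MCM7, 0.10, was 0.0795 after quantile and 0.0804 after cyclic loess normalization, and 0.0254 to 0.174 when single arrays were dropped.

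Signs turned for uncalled genes. With quantile and cyclic loess normalization MCM3 became 0.0463 and 0.0382, MCM10 became 0.0581 and 0.0431, and COPS6 0.0612 and 0.0559. When single arrays were dropped the log2 differences ran from -0.0267 to 0.0748 for MCM2, -0.0482 to 0.0512 for MCM4, -0.0324 to 0.0841 for CDC45, -0.23 to 0.054 for CDT1, -0.10 to 0.0419 for COPS6, -0.10 to 0.42 for MIR25, -0.34 to 0.23 for MIR93, -0.23 to 0.0817 for PAQR8 and -0.15 to 0.0117 for PODXL2.

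The replicate numbers are shared by the groups, but nothing in the labels says that a number marks a shared culture or day. The replicate 1 minus 2 differences of the groups correlated at 0.14 over genes. With the replicate block 1604 genes were called, and MCM8 (0.47, limma adjusted p 0.0348) remained the 1 MCM gene called. Dim probe sets such as MIR93, near the bound of 4.59, limit what can be seen there.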
